A study of Homo sapiens with 5 samples.

Results

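Metallothioneins are small cysteine-rich proteins that bind zinc and copper, and the genes described here were 6 of them (MT2A, MT1E, MT1F, MT1G, MT1X and MT1M) together with MTF1, the transcription factor that senses free zinc, and SLC30A1, which carries zinc out of the cell. These 8 genes were taken by symbol from the tables of 5 RNA libraries, and 7 of the 8 were listed in at least 1 library among 19716 genes listed in all. MT1M was listed in none. Of the 8 genes, 5 had at least 20 reads in every library, namely MT2A, MT1X, MT1F, MTF1 and SLC30A1, and these are called the measured genes below.

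The libraries came from HEK293T cells, an established line derived from human embryonic kidney. Cells of 4 groups were given 1 dCas9-BFP fusion and 5 uPA sgRNAs, which guide it to the promoter of PLAU, the gene of the protease uPA, where dCas9 is a Cas9 that binds its target without cutting it and BFP is a blue fluorescent protein. The fusion partner was the catalytic domain of DNMT1, DNMT3A or DNMT3B, enzymes that methylate DNA, or EGFP, a green fluorescent protein. The groups are named after the partner. In the paper, methylation of the uPA promoter rose with the DNMT3A and DNMT3B fusions but not with those of DNMT1 or EGFP. Libraries with a DNMT partner are called methyltransferase libraries below, whatever their activity. The fifth group, pUC19, had received that plasmid without dCas9 or sgRNA and served as the control. All groups were transfected with 1 ug of plasmid in total by X-tremeGENE 9, and RNA was taken after 48 h. By the labels BFP-positive cells were sorted in every group, but pUC19 carries no BFP, and how its cells were gated is not given in the sources used here. Each group had 1 library, so the differences have no replicate check, and a transfection or library effect cannot be told apart from that of a construct.

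Zinc that enters the cytoplasm binds MTF1, which moves to the nucleus and binds to metal response elements in the promoters of metallothionein genes and of SLC30A1. The metallothioneins made in this way hold the metal, and SLC30A1 at the plasma membrane exports it. The activity of MTF1 is controlled largely by zinc binding and by its place in the cell.

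The depth was 26250000 to 36140000 reads assigned to genes per library (rounded to the nearest 10000), the highest in pUC19. PLAU, the gene targeted by the guides, stood at 2.48 TPM (a level scaled for gene length and library total) in pUC19 and at 0.0331 to 0.181 TPM in the fusion libraries, on 1 to 6 reads there. The row of the methyltransferase carried by the plasmid reached 14582 TPM for DNMT1, 16745 TPM for DNMT3A and 33141 TPM for DNMT3B, each in its own library. All 6 markers of HEK293T, a line with neural-type transcripts, were above 5 TPM in every library, with a summed level of 657 to 848 TPM. The 7 markers of blood, endothelium, fibroblasts, hepatocytes and basal epithelium summed to at most 1.71 TPM, and 2 to 4 of them were at 0. A pair of HEK293T markers was lower in the fusion libraries: NEFM, a neurofilament gene, was at 193 TPM in pUC19 and 34.3 to 60.2 TPM in the fusion libraries, and NEFL at 90.7 TPM and 28.9 to 35.6 TPM. VIM was higher in every fusion library, at 437 TPM in pUC19 and 463 to 599 TPM. The rest lay on both sides of pUC19: CDH2 (68.3 TPM, then 55.4 to 71.6), LIN28B (51.0, then 31.6 to 64.4) and PAX2 (7.55, then 6.08 to 7.72). The part of these differences in the results below was not tested. In RNA from a bulk of sorted cells, fewer cells with a transcript and less of it per cell cannot be told apart.

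The 6 metallothionein genes lie within 75.6 kb of chromosome 16 in GRCh37, the build of the files, from MT2A (chr16:56642496-56643409, plus strand) to MT1X (chr16:56716382-56718108, plus strand). MT1F lies between them at chr16:56691643-56694610 on the plus strand. MTF1 (chr1:38275246-38325264) and SLC30A1 (chr1:211744910-211752503) lie on the minus strand of chromosome 1. Only reads that mapped to 1 place were counted, so the likeness of these genes bears on every value that follows. In each of the 6 genes the coding frame held 186 bases and 61 codons, of which 20 encode cysteine, and any pair of frames was identical in 88.7% to 95.2% of bases. The last 60 coding bases, stop codon included, are shown because the genes are told apart there by a few letters, with capitals at bases that differ from MT2A.
MT2A: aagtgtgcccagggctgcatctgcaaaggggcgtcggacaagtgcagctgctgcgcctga
MT1X: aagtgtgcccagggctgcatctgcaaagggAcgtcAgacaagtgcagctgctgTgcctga
MT1F: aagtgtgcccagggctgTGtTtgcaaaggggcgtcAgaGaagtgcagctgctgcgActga
MT1E: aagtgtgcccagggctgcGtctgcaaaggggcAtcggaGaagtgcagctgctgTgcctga
MT1G: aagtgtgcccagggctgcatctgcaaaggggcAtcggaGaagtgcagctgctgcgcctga
MT1M: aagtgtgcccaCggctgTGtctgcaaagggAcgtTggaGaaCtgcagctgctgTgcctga
Over this stretch MT1G differed from MT2A at 2 bases, MT1X at 3, MT1E at 4, MT1F at 6 and MT1M at 8. Of all windows of 50 bases in the reference transcript, 10.2% in MT2A, 18% in MT1X, 6.12% in MT1F, 5.34% in MT1E, 20.2% in MT1G and 14.6% in MT1M were found without mismatch in another gene. The longest stretch shared exactly was 96 bases between MT1X and MT1G, and no window of 100 bases was shared by any of the 8 genes. MTF1 shared 0.647% and SLC30A1 0% of their windows of 50 bases. With up to 3 mismatches, 31.4% of such windows in MT1F, 32.1% in MT2A and 33.9% in MT1E matched another gene of the family. The share was 35.5% in MT1X, 51% in MT1G and 69.6% in MT1M. The reference transcript of MT1E has 704 bases, against 519 in its row, so its shares are those of a longer sequence. The levels of the metallothioneins are therefore uncertain to the extent that shared reads were dropped, and MTF1 and SLC30A1 are nearly free of this limit.

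The promoters are shown because MTF1 binds metal response elements in them. The 250 bases before the annotated start were taken from RefSeq (GRCh38.p14), where 4 of the 8 genes matched, and the core motifs TGCACNC and TGCGCNC were searched on both strands, with matches in capitals and all sequences on the strand of the gene. They lie at chr16:56608334-56608583 (plus strand) for MT2A, chr16:56682220-56682469 (plus) for MT1X and chr1:211579162-211579411 (minus) for SLC30A1.
MT2A: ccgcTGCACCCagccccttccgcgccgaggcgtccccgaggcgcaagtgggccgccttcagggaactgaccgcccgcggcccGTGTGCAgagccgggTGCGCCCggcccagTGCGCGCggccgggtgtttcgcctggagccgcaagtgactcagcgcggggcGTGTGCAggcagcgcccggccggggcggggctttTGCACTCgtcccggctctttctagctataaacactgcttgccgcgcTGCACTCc
MT1X: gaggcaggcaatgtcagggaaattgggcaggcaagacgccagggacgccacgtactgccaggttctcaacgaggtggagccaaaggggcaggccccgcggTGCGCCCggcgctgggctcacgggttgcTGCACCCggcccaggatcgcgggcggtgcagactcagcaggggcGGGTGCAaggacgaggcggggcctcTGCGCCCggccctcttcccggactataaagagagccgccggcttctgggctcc
SLC30A1: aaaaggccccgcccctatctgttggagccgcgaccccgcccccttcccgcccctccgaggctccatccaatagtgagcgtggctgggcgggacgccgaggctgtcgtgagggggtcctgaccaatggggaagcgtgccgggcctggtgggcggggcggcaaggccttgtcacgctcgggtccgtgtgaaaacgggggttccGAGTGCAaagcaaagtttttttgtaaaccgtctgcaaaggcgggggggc
The MT2A promoter held 7 matches, 5 on the strand of the gene, and that of MT1X held 4, of which 3 were on its strand. The SLC30A1 promoter held 1 match, and that of MTF1 held none in this window. Among 35116 promoters, 24.8% held at least 1 match, 0.37% at least 4 and 0.12% at least 5. A match describes letters in the window, not a site that is bound.

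MT2A was the most abundant metallothionein in every library. It stood at 61.6 TPM in pUC19 (458 reads), 55.5 in EGFP (292 reads), 42.5 in DNMT1 (245 reads), 43.5 in DNMT3A (258 reads) and 43.3 in DNMT3B (227 reads). The control was highest, EGFP came next, and the 3 methyltransferase libraries lay together within about 1 TPM of each other. Its 95% exact intervals, which cover the counting of reads only, were 56.1 to 67.5 TPM in pUC19 and 49.3 to 62.2 TPM in EGFP, and so overlapped. Those of the methyltransferase libraries, which ran from 37.3 to 49.3 TPM over all 3, lay below that of pUC19. Within pUC19 83.7% of listed genes were lower than MT2A, and within DNMT3B 75.7% were.

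MT1X came second and varied most of the 3 measured metallothioneins. Its level was 39.4 TPM in pUC19 (294 reads), 20.1 in EGFP (106 reads), 22.8 in DNMT1 (132 reads), 12.7 in DNMT3A (76 reads) and 21.8 in DNMT3B (115 reads). The control stood above all 4 fusion libraries, DNMT3A stood below the rest, and EGFP, DNMT1 and DNMT3B did not differ beyond their counting intervals. The exact interval of pUC19 was 35 to 44.2 TPM, the highest upper bound among EGFP, DNMT1 and DNMT3B was 27.0 TPM, and DNMT3A spanned 10 to 16 TPM.

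MT1F was measured on few reads, with 7.56 TPM in pUC19 (55 reads), 3.88 in EGFP (20 reads), 9.21 in DNMT1 (52 reads), 6.20 in DNMT3A (36 reads) and 7.01 in DNMT3B (36 reads). EGFP was lowest and DNMT1 highest, and the interval of EGFP, 2.37 to 6.0 TPM, lay below that of DNMT1, 6.88 to 12.1 TPM. Every other pair of libraries overlapped.

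The remaining metallothioneins were at the limit of the counts. MT1E had 3 reads in DNMT3A and none elsewhere, MT1G had 3 reads in pUC19 and none elsewhere, and MT1M had no reads. A count of 0 allows up to 3 reads in a library, so a difference in these genes was not detectable at this depth.

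MTF1, the zinc sensor, was at 7.52 TPM in pUC19 (958 reads), 15.4 in EGFP (1389 reads), 9.61 in DNMT1 (950 reads), 17.9 in DNMT3A (1817 reads) and 18.5 in DNMT3B (1668 reads). The control was lowest and DNMT1 next, and the other 3 fusion libraries stood apart above both. The intervals of DNMT3A, 17 to 18.7 TPM, and DNMT3B, 17.7 to 19.5 TPM, overlapped, whereas no other pair did.

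SLC30A1, the exporter, was at 15.5 TPM in pUC19 (503 reads), 19.1 in EGFP (439 reads), 13.5 in DNMT1 (340 reads), 17.4 in DNMT3A (452 reads) and 19.4 in DNMT3B (445 reads). DNMT1 was lowest and EGFP and DNMT3B were nearly equal at the top. From lowest to highest, each library overlapped its neighbour in the order DNMT1, pUC19, DNMT3A, EGFP and DNMT3B. The transcript was covered over 81.7% to 86.5% of its length, as the tables give it, and MTF1 over 91.8% to 95%. The row of SLC30A1 has 2034 bases, against 5893 in the reference transcript used here, so its level per length is that of a shorter sequence.

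**Figure D1:**
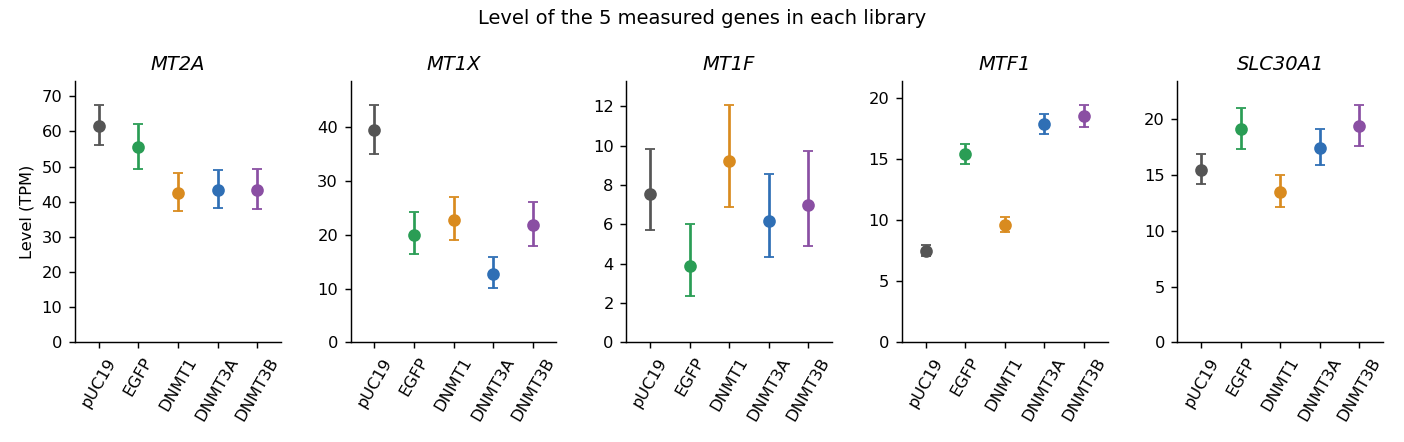
Level in TPM (y axis, from 0, own scale per gene) of the 5 measured genes in the 5 libraries (x axis), 1 point per library with the 95% exact interval of its read count. MT2A and MT1X are highest in pUC19 at 61.6 and 39.4 TPM, and MTF1 is lowest there at 7.52 TPM.

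Added over the 6 genes, metallothionein transcripts came to 109 TPM in pUC19, 79.4 in EGFP, 74.5 in DNMT1, 62.9 in DNMT3A and 72.1 in DNMT3B. The sum was highest in the control and lowest in DNMT3A. Relative to pUC19 it stood at a log2 ratio of -0.46 in EGFP, -0.55 in DNMT1, -0.80 in DNMT3A and -0.60 in DNMT3B.

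The mix of the family differed between libraries. The TPM of MT2A divided by that of MT1X, a ratio within a library that does not depend on its total, was 1.56 in pUC19 (95% exact interval 1.35 to 1.82), 2.77 in EGFP (2.21 to 3.49), 1.86 in DNMT1 (1.5 to 2.32), 3.41 in DNMT3A (2.63 to 4.46) and 1.98 in DNMT3B (1.58 to 2.50). The intervals of EGFP and DNMT3A lay above that of pUC19, and those of DNMT1 and DNMT3B overlapped it. MT1X made up 36.1% of the summed level in pUC19 and 20.3% in DNMT3A, and MT1F 4.89% in EGFP and 12.4% in DNMT1.

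Each fusion library was compared with pUC19 to ask which transcripts differ once a dCas9 fusion and its guides are present. Calls required an adjusted p of at most 0.001 in a two-sided exact binomial test of the reads and a ratio of TPM + 0.1 of at least 2, with Benjamini-Hochberg adjustment over all genes with a read in either library. This test compares 2 libraries and covers read sampling only. Against pUC19, MTF1 was called higher in DNMT3A, DNMT3B and EGFP and MT1X was called lower in DNMT3A. No member was called in DNMT1, and none in all 4 fusions, where 86 genes were called higher and 229 lower of 19716 listed in at least 1 library.

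MTF1 rose at a log2 ratio of 1.24 in DNMT3A (95% exact interval 1.12 to 1.35, exact test adjusted p 5.26e-104), 1.29 in DNMT3B (1.17 to 1.41, adjusted p 1.67e-98) and 1.02 in EGFP (0.90 to 1.14, adjusted p 7.45e-61). In DNMT1 its log2 ratio was 0.35 (0.22 to 0.48, adjusted p 8.70e-08 in the exact test), below the 2-fold limit. The interval in EGFP includes a 2-fold difference, and with a pseudocount of 1 TPM the log2 ratio there was 0.94 and not called. With a coefficient of variation of 0.2 between libraries assumed in edgeR's exact test, the adjusted p was 0.0686 in DNMT3A, 0.0764 in DNMT3B and 0.285 in EGFP, and no call was left. Over all genes tested, 4.40% were called higher in DNMT3A, 4.47% in DNMT3B, 2.60% in EGFP and 1.53% in DNMT1.

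MT1X fell in DNMT3A by 1.62 on the log2 scale (interval -2.00 to -1.25, exact test adjusted p 9.20e-22). Its log2 ratio was -0.79 in DNMT1, -0.85 in DNMT3B and -0.97 in EGFP, with exact test adjusted p values of 6.52e-07, 2.82e-09 and 5.44e-10. These ratios stayed within 2-fold, but their intervals include a 2-fold difference: -1.095 to -0.49 in DNMT1, -1.17 to -0.53 in DNMT3B and -1.30 to -0.65 in EGFP. With the assumed coefficient of variation of 0.2 the adjusted p in DNMT3A was 0.0147 in edgeR's exact test, past the limit of 0.001. In the same test it was 0.601 in DNMT1, 0.272 in DNMT3B and 0.333 in EGFP. All 4 ratios had the same sign. In DNMT3A 3.28% of genes tested had a lower ratio than MT1X, and in the other 3 libraries 6.90% to 12.6% did. The share of all genes called lower was 4.96% in DNMT3A, 4.29% in DNMT3B, 3.10% in EGFP and 3.63% in DNMT1.

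MT2A was not called in any of the 4. Its log2 ratio was -0.54 in DNMT1, -0.50 in DNMT3A, -0.51 in DNMT3B and -0.15 in EGFP, with exact test adjusted p values of 1.39e-05, 4.85e-06, 5.81e-07 and 0.147. The 3 methyltransferase libraries gave nearly the same value, at less than 2-fold. With the assumed coefficient of variation of 0.2, the adjusted p of MT2A in edgeR's exact test was 0.820 in DNMT1, 0.629 in DNMT3A and 0.550 in DNMT3B. MT1F gave log2 ratios of 0.28 in DNMT1, -0.28 in DNMT3A, -0.11 in DNMT3B and -0.94 in EGFP, where the exact test adjusted p was 0.0169, and its interval in EGFP ran from -1.76 to -0.18. SLC30A1 gave -0.20 in DNMT1, 0.17 in DNMT3A, 0.32 in DNMT3B and 0.30 in EGFP, and the lowest exact test adjusted p was 0.0115.

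These ratios carry the scaling of the library totals. The median log2 ratio of all genes tested was -0.15 in DNMT1 and -0.06, -0.05 and -0.0032 in DNMT3A, DNMT3B and EGFP. With TMM scaling, which sets typical genes level between libraries, the median in DNMT1 became -0.03 and the values there became -0.41 for MT2A, -0.66 for MT1X, 0.41 for MT1F, 0.48 for MTF1 and -0.07 for SLC30A1, without a change of sign. The 4 comparisons share the pUC19 library, so a deviation of that library would enter all of them.

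**Figure D2:**
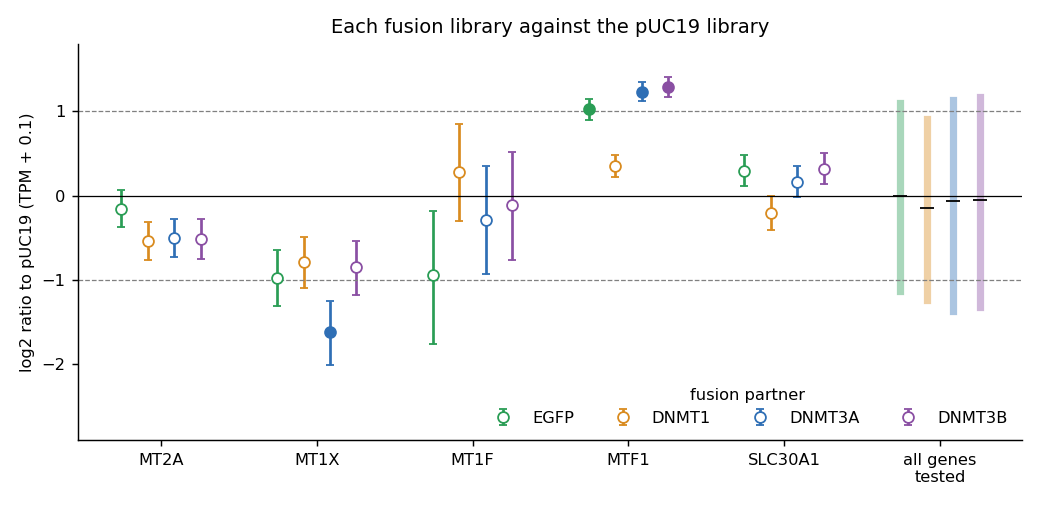
Log2 ratio of TPM + 0.1 in each fusion library to pUC19 (y axis) for the 5 measured genes, with 95% exact intervals. Filled points passed the call, dashed lines mark 2-fold, and the last column gives the median (black dash) and the 5th to 95th percentile (bar) of all genes tested. MTF1 is filled in 3 libraries and MT1X in DNMT3A.

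The methyltransferase fusions were also compared with EGFP, which had the same guides. For DNMT3A and DNMT3B this asks what an active domain adds. The DNMT1 fusion, like EGFP, did not raise uPA promoter methylation in the paper. No member was called, against 1.44% of all genes in DNMT1, 3.97% in DNMT3A and 3.50% in DNMT3B. MTF1 was below EGFP in DNMT1, at a log2 ratio of -0.68 (exact test adjusted p 4.61e-24), and close to it in DNMT3A at 0.21 and DNMT3B at 0.27. MT2A gave -0.39, -0.35 and -0.36 in DNMT1, DNMT3A and DNMT3B, with exact test adjusted p values of 0.0236, 0.0132 and 0.00355. With TMM scaling these ratios were -0.25, -0.32 and -0.34, with exact test adjusted p values of 0.114, 0.0215 and 0.0174.

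MT1X gave 0.18 in DNMT1, -0.65 in DNMT3A and 0.12 in DNMT3B against EGFP, and the lowest exact test adjusted p was 0.00794. MT1F was 1.22 in DNMT1 (interval 0.46 to 2.05, exact test adjusted p 0.00175), past 2-fold but short of the p limit, which it met with TMM scaling at 1.36, and 0.66 and 0.84 in DNMT3A and DNMT3B. SLC30A1 was -0.50 in DNMT1 (exact test adjusted p 8.36e-05), -0.13 in DNMT3A and 0.02 in DNMT3B. Relative to EGFP, DNMT1 was thus higher in MT1F and lower in SLC30A1, neither of them called.

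DNMT3A and DNMT3B, which share a de novo methyltransferase function, were close to each other, with 0.215% of all genes called between them and no member. MT1X had the largest difference of the 5 measured genes, a log2 ratio of -0.77 (interval -1.21 to -0.34, exact test adjusted p 0.00516), lower than 94.9% of genes tested. MTF1 differed by -0.05 (interval -0.15 to 0.04), MT2A by 0.01 (-0.26 to 0.27), SLC30A1 by -0.15 (-0.35 to 0.04) and MT1F by -0.18 (-0.88 to 0.53).

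With the 4 fusions taken as 1 group against pUC19 in edgeR's quasi-likelihood test, where the spread comes from 4 different constructs, none of the 5 measured genes was called at an adjusted p under 0.05, against 0.737% of 16001 genes. MTF1 had a log2 fold change of 1.07 (edgeR adjusted p 0.148), MT1X -0.97 (0.199), MT2A -0.37 (0.465), SLC30A1 0.21 (0.693) and MT1F -0.14 (0.915). At an unadjusted p under 0.05, MTF1 and MT1X passed, as did 2879 genes in all. DESeq2 on the same counts called 1 of the 5, MTF1, at 1.07 with an adjusted p of 0.0270, and called 4.96% of all genes. With each library's trend on GC content and length in the fit, MT2A was at -0.16 and MT1X at -0.79. MT1F was at 0.075, MTF1 at 1.13 and SLC30A1 at 0.44, and none of the 5 was called.

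DNMT3A and DNMT3B were then taken against DNMT1 and EGFP, whose fusions lacked de novo methylation activity in the paper. Each side holds different constructs and not replicates, so the adjusted p values do not come from a replicated contrast. The fit called 11.0% of 15332 genes and none of the 5 measured genes. MTF1 was at 0.50 (edgeR adjusted p 0.104), MT1X at -0.38 (0.442), MT2A at -0.22 (0.481), SLC30A1 at 0.13 (0.675) and MT1F at -0.07 (0.934). MTF1 alone among the 5 passed an unadjusted p of 0.05. With each library's trend on GC content and length in the fit, MTF1 was called, at 0.62 with an edgeR adjusted p of 0.0225, where 14% of all genes were called. That trend turned MT2A to 0.0087 and MT1F to 0.19, neither of them called. Without the EGFP library MTF1 was called at 0.80 with an edgeR adjusted p of 0.000129, where 24.7% of all genes were called. Without DNMT1 it was at 0.26, not called (edgeR adjusted p 0.175), where 22.5% of all genes were. The MTF1 transcript, at 7986 bases, is longer than 95% of genes, and the 3 measured metallothioneins, at 456 to 468 bases, are longer than 2.17% to 2.23%.

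Of 10 other genes of the metallothionein family, 4 were listed in some library. MT1IP, annotated as a pseudogene, was the only one of these with more than 3 reads in a library, with 74 in pUC19, 22 in EGFP, 26 in DNMT1, 15 in DNMT3A and 18 in DNMT3B. The control was highest, as for MT2A and MT1X. MT1IP was called lower in DNMT3A (log2 ratio -1.81, exact test adjusted p 1.22e-07), DNMT3B (-1.43, 1.02e-05) and EGFP (-1.17, 0.00034), and was at -1.07 in DNMT1 with an exact test adjusted p of 0.00115. Over all genes, 4.96% were called lower in DNMT3A, 4.29% in DNMT3B and 3.10% in EGFP. The assumed coefficient of variation of 0.2, which left no call among the measured genes, is not given for MT1IP. The reads of MT1IP covered only 14.3% to 16.5% of a row of 2005 bases, so the value rests on a short stretch.

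Zinc transport was read from the other exporters of the SLC30 family and the importers of the SLC39 family. Of 9 exporters, 6 reached a mean of 5 TPM, and none was called against pUC19 in any fusion. Over all genes, 1.53% to 4.96% were called per fusion and direction. Their median log2 ratio was -0.15 in DNMT1, -0.33 in DNMT3A, -0.11 in DNMT3B and 0.02 in EGFP, beside -0.15, 0.0040, 0.0034 and -0.0064 over all genes of at least 5 TPM. SLC30A6, which works in the Golgi, had the largest mean, -0.55, with 27.5 TPM in pUC19, 23.3 in EGFP, 19.6 in DNMT1, 16.1 in DNMT3A and 16.8 in DNMT3B. SLC30A7, another Golgi transporter, followed at -0.21.

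Of 14 importers, 11 reached 5 TPM and 1 was called, in DNMT3A, where 4.96% of all genes were called lower. SLC39A10, a plasma membrane importer, stood at 53.9 TPM in pUC19, 44.9 in EGFP, 38.5 in DNMT1, 22.6 in DNMT3A and 31.3 in DNMT3B. It was called lower in DNMT3A, at a log2 ratio of -1.25 (exact test adjusted p 2.25e-226), where 6.04% of genes tested had a lower ratio. That p covers read sampling only, and a result with the assumed coefficient of variation of 0.2 is not given for SLC39A10. DNMT3A was the lowest of the 5 libraries for SLC39A10, as it was for MT1X. This was not particular to these genes: SLC30A6, SLC30A9, SLC39A8 and SLC39A14 were also lowest there, whereas SLC39A1 was highest there. SLC39A7, which releases zinc from the endoplasmic reticulum, was at 97.1 TPM in pUC19 and 118 to 144 TPM in the fusion libraries, a mean log2 ratio of 0.43 and not called. The importers' median log2 ratio ran from -0.14 in DNMT3B to 0.18 in EGFP.

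Of 14 genes for copper and iron, 13 reached 5 TPM and none was called against pUC19, beside 1.53% to 4.96% of all genes per fusion and direction. FTH1, the ferritin heavy chain that stores iron, was at 1027 TPM in pUC19 and 1220 to 1523 TPM in the fusion libraries. SLC11A2, an iron importer, was at 27.9 TPM in pUC19 and 32.5 to 45.1 TPM in the others. The list's median log2 ratio ran from -0.06 in DNMT3A to 0.17 in EGFP. In edgeR's fit of DNMT3A and DNMT3B against DNMT1 and EGFP, 6 genes of these lists were lower and none higher: the exporter SLC30A9 (log2 fold change -0.51, edgeR adjusted p 0.0411), the importers SLC39A9 (-0.60, 0.0200) and SLC39A10 (-0.69, 0.0297), the copper transporters SLC31A1 (-0.58, 0.0346) and ATP7B (-0.49, 0.0466), and the transferrin receptor TFRC (-0.61, 0.0365). That fit tested 7 exporters, 11 importers and 14 copper and iron genes, and called 4.15% of all genes lower. None of the 6 was called without the DNMT3A library (edgeR adjusted p 0.278 to 0.419) or without DNMT3B (0.0875 to 0.291), and 1 was called without a filter on low counts.

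**Figure D3:**
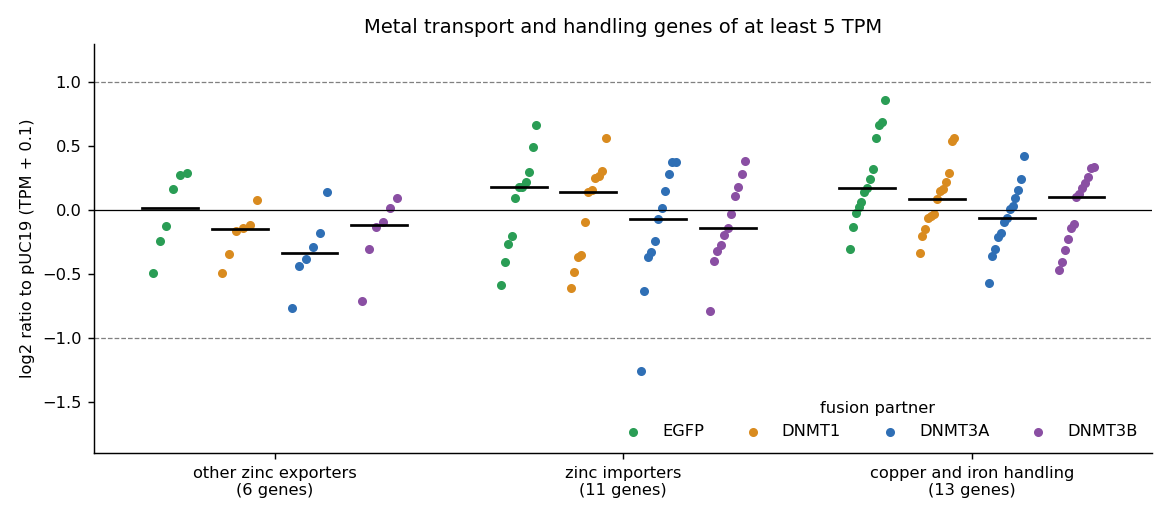
Log2 ratio of TPM + 0.1 to pUC19 (y axis) for metal transport and handling genes of at least 5 TPM, 1 point per gene and fusion library, with the median as a black line and 2-fold as dashed lines. All points lie within 2-fold except SLC39A10 in DNMT3A at -1.25.

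The genes whose pattern over the 5 libraries was most like that of MT2A, by the root mean square difference of centred log2(TPM + 0.1) over 10934 genes of at least 5 TPM, were CEP57L1 (0.0214), IFT81 (0.0250) and RNF170 (0.0340). For SLC30A1 they were APBB2 (0.0277), CKAP2 (0.0282) and PURA (0.0308). CEP57L1 ran from 18.2 TPM in pUC19 to 12.0 TPM in DNMT1, as MT2A ran from 61.6 to 42.5 TPM. With 5 libraries such likeness is a description only.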

How the data were processed

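RNA from 5 groups of HEK293T cells, 1 library each, was read on an Ion Proton. After filters on quality, adaptors and read length, the authors used tmap (version not given in the sources used here) to align to RefSeq RNA of hg19 (GRCh37), with unique reads kept. The deposited values are the read count per gene, TPM computed by the authors from count and length, and a coverage in percent that the authors did not define. Genes without reads are not listed and were set to 0. Recomputing TPM from counts and lengths gave the deposited values.

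Groups came from the sample titles. Pairs of libraries were compared by a two-sided exact binomial test of reads given both totals (scipy 1.17.1), and log2 ratios use TPM + 0.1, which understates low genes. Intervals are 95% Clopper-Pearson and cover counting error only. Log2 ratio intervals are those of the read ratio moved to the TPM scale. The groups of fusions were compared with edgeR 4.0.16 (R 4.3.3; TMM, filterByExpr, quasi-likelihood test, Benjamini-Hochberg), and alternatives included DESeq2 1.42.0 and a loess trend (span 0.3) on GC content and length for the 89.25% of genes with a value. The scripts were tested on simulated counts.

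Transcripts and positions were from GENCODE on GRCh37, and the coding frame was taken as the open reading frame with the most cysteine codons. The genes named are all 8 members, for each list the genes called in all 4 fusions or else the largest 2 by mean log2 ratio, and the 3 genes most like MT2A and SLC30A1; MT1IP and the genes called in the fit of DNMT3A and DNMT3B were named after their values were seen. Members and lists were chosen with earlier results of these data known.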

Additional observations from a re-analysis of the deposited data

Results flagged for a closer look

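Between fusions with the same guides, the exact test passed an adjusted p of 0.001 for 4 differences, all of less than 2-fold and each between 1 library and 1 library. MTF1 differed from EGFP by a log2 ratio of -0.68 in DNMT1, 0.21 in DNMT3A and 0.27 in DNMT3B. SLC30A1 differed from EGFP by -0.50 in DNMT1. Part of the DNMT1 values is shared by all genes, whose median log2 ratio to EGFP was -0.13 in that library, and with TMM scaling the values were -0.54 for MTF1 and -0.36 for SLC30A1. SLC30A1 then had an exact test adjusted p of 0.00198 and no longer passed. With a coefficient of variation of 0.2 assumed in edgeR's exact test, none of the 4 differences passed, each at an adjusted p of 1.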

How the results depend on the processing

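Of the alternatives for single genes, 262 kept their direction and their side of the threshold, 7 reversed, 5 became stronger and 5 weaker. Between pairs of libraries, the assumed coefficient of variation, a minimum of 1 TPM and the looser p limit left the log2 ratios unchanged. Under these a reversal was not possible, and a gene below 2-fold kept its side whatever its p. MT2A in DNMT1 against pUC19 counted as kept. Its adjusted p moved from 1.39e-05 (binomial test of reads) to 0.820 (edgeR's exact test). The 262 therefore do not measure how stable the p values were. With an assumed coefficient of variation of 0.2 in edgeR's exact test, 0 genes were called in DNMT3A, DNMT3B or EGFP against pUC19: the adjusted p was 0.0147 for MT1X in DNMT3A and 0.0686, 0.0764 and 0.285 for MTF1. With a pseudocount of 1 TPM, 0 were called in EGFP, where MTF1 fell to 0.94. DNMT1 against EGFP gave 1 call, MT1F, with TMM scaling (1.36) and with an adjusted p limit of 0.05. For the 4 fusions against pUC19, DESeq2 called 1, MTF1, and between the fusions (DNMT3A with DNMT3B, DNMT1 with EGFP) the GC and length trend called 1, MTF1. Leaving out each library in turn gave 0 to 1 calls there, with 1 without EGFP.

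MT1F in the 4 fusions reversed to 0.075 with the GC and length trend, and leaving out libraries gave -0.39 to 0.056, the latter without EGFP. In the other fit the trend gave 0.0087 for MT2A and 0.19 for MT1F, and leaving out libraries gave -0.60 to 0.77 for MT1F and -0.038 to 0.33 for SLC30A1, where 0.77 and -0.038 came without DNMT1. It gave 0.26 (without DNMT1) to 0.80 for MTF1, -0.80 (without DNMT3B) to -0.039 (without DNMT3A) for MT1X and -0.34 (without DNMT1) to -0.090 (without EGFP) for MT2A. No reversal passed a threshold, and the cause was not tested.

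Over all genes, the 118 calls of the 4 fusions became 977 with DESeq2, 252 without a filter and 65 to 95 with a library left out. The 1694 of the other fit became 1052 without a filter, 18 without DNMT3A, 53 without DNMT3B, 3536 without DNMT1 and 3850 without EGFP. MT1F, on 20 to 55 reads, is limited by depth. No paired analysis was possible because the labels carry no replicate numbers and each group has 1 library.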
